A study of Mus musculus with 10 samples.

Results

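Fatty acid oxidation genes and targets of PPARA were followed in the livers of mice that lost the histone variant H3.3 in hepatocytes. The 35 members were chosen by name, as the genes of fatty acid uptake and activation, mitochondrial and peroxisomal beta-oxidation, omega hydroxylation and ketone body metabolism, out of 55421 genes in the count table. The rule is a list of gene names and holds no threshold on a measured value. The members and the gene lists read beside them were, however, chosen with earlier results of these data known. All 35 were detected and all passed the minimum of 10 counts summed over the 10 livers, as did 22449 genes in total.

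Poly(A) RNA from whole livers of 10 male C57BL/6 mice was sequenced 3 weeks after injection of an adeno-associated virus (AAV8) at 6 months of age. H3.3 KO livers (n = 4) came from mice with floxed alleles of both H3.3 genes, H3f3a fl/fl and H3f3b fl/fl, that received AAV8 Tbg-Cre. WT Cre controls (n = 3) were wild-type mice given that same Cre virus, and MCS controls (n = 3) were H3f3a fl/fl H3f3b fl/fl mice given AAV8 Tbg-MCS, which carries no Cre. The Tbg promoter is active in hepatocytes, so the other cells of the liver keep their alleles. Thus Cre was shared by KO livers and WT Cre controls, and the floxed alleles by KO livers and MCS controls. Groups were taken from the sample titles, which name H3f3a and H3f3b, while the genotype label of the same animals names HIRA instead. The kind of each control library rests on the match of its column number to the library number in the labels. Feeding state and hour of harvest were not given in the sources used here.

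The liver takes up fatty acids, binds them in the cytosol, activates them to acyl-CoA and passes them through the carnitine shuttle into mitochondria, where beta-oxidation shortens the chain and the acetyl-CoA can become ketone bodies. Very long chains are shortened first in peroxisomes, and CYP4A enzymes hydroxylate fatty acids at the omega end. PPARA is a nuclear receptor that binds DNA with a retinoid X receptor and is known to induce genes at every one of these steps, above all in fasting.

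The 2 targeted genes were lower in all KO livers than in all controls. H3f3a was at 25.8%, 30.2%, 25.7% and 30.6% of the control mean in KO livers 1 to 4, and H3f3b at 24.9%, 33.6%, 32.4% and 35.4%. KO liver 1 nevertheless stood apart in the members. The median log2 ratio of the 35 members to their control mean was 0.04 in KO liver 1, against -0.62, -0.72 and -0.68 in KO livers 2, 3 and 4, while the 6 controls lay between -0.13 and 0.04. KO liver 1 also had the lowest depth, 14998426 counts, where the other 9 libraries held 20862860 to 26096141, and its lymphocyte and neutrophil marker sum was 25.3 CPM (counts scaled to a common library size) against 106 to 139 in the other KO livers. The part of these differences in its member values was not tested. Counts without this liver are therefore given beside the main ones. It was singled out by the same member values, so lower calls gained without it are no separate support.

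Of the 35 members, 14 were lower, 6 were higher and 15 did not pass in H3.3 KO livers against the 6 controls, using edgeR's quasi-likelihood test with Benjamini-Hochberg adjusted p under 0.05 over all 22449 genes. Among all genes tested 36.3% were called in either direction, 16.6% were lower and 19.7% higher by the same rule, so lower members made up 40% of the members and higher members 17.1%. The median log2 fold change of the members was -0.55 against -0.003 over all genes. Without KO liver 1 the counts were 19 lower and 5 higher, with a median of -0.68, and 18.9% of all genes were then lower and 22% higher. With the further requirement of an absolute log2 fold change over 1 (differentially expressed genes, DEGs), 8 members were lower and 4 were higher, where 5.79% of all genes were lower DEGs and 12.9% higher DEGs. In 12 members (34.3%) every KO liver was below every control, as in 12% of all genes, and in 3 members (8.57%) every KO liver was above every control, as in 12.5% of all genes.

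**Figure D1:**
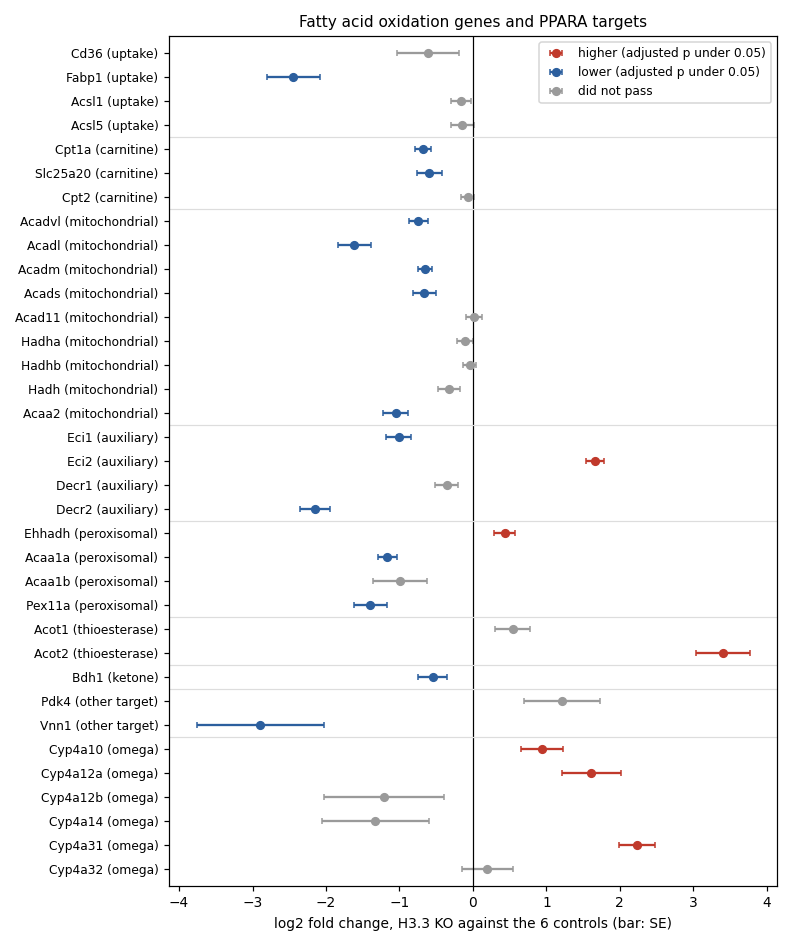
Log2 fold change of each member in H3.3 KO livers (n = 4) against the 6 controls, with the standard error as a bar, grouped by role. Blue marks the 14 members that were lower, red the 6 that were higher and grey the 15 that did not pass at an adjusted p under 0.05.

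Markers of some of the liver's cell types moved in the same comparison. Of 15 hepatocyte markers measured, 12 were lower and 0 higher, with a median log2 fold change of -0.63, and their summed level was 92800 to 107000 CPM in KO livers and 120000 to 181000 CPM in controls. All 12 Kupffer cell and macrophage markers were higher, with sums of 664 to 1440 CPM against 285 to 542 CPM, and 10 of 12 stellate cell and fibroblast markers were higher, with 667 to 948 CPM against 352 to 428 CPM. Of the other lists, 9 of 12 lymphocyte and neutrophil markers, 3 of 12 endothelial markers, 3 of 11 cholangiocyte markers and 1 of 5 adipocyte markers were higher and none of their members lower. Over all genes tested 19.7% were higher and 16.6% lower, so the endothelial, cholangiocyte and adipocyte counts of higher markers were near the all-gene share. Endothelial sums were 294 to 492 CPM in KO livers and 262 to 322 CPM in controls, cholangiocyte sums 117 to 136 CPM and 76 to 111 CPM, and adipocyte sums 23.6 to 77.5 CPM and 18.9 to 42.4 CPM, with the adipocyte hormone Lep at 0 in all livers. In whole liver RNA, fewer hepatocytes and less RNA per hepatocyte cannot be told apart, and the part of these shifts in the member results was not tested.

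The promoters of 5 members are shown because these genes, picked after their values were seen, carried the clearest changes of their roles, with Fabp1, Acadl and Decr2 lower and Eci2 and Acot2 higher. Each line gives the 150 bases before the RefSeq start of the gene, 5′ to 3′ on its strand, on GRCm38.p6, the assembly that mm10 represents. RefSeq starts can differ from the outer ends of the GENCODE genes, whose coordinates are given with the values, so that the Decr2 and Eci2 lines lie inside those spans and the Fabp1 line overlaps the beginning of its span. Capitals mark a match to the DR1 element, AGGTCA and again AGGTCA after 1 spacer base, which PPARA and its partner bind, with up to 2 mismatches on either strand, and the TATAAA box.
Fabp1, chr6:71199729-71199878, plus strand: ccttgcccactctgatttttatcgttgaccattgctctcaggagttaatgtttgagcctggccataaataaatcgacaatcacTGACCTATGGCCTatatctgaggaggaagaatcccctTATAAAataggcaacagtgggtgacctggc
Acadl, chr1:66863310-66863459, minus strand: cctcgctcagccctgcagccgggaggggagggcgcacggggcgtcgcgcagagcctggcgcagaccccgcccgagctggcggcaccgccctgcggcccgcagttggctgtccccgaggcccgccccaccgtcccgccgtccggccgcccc
Decr2, chr17:26090165-26090314, minus strand: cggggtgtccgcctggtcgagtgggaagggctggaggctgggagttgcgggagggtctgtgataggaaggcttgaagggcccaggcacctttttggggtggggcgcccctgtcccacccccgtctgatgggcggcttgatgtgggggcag
Eci2, chr13:34994145-34994294, minus strand: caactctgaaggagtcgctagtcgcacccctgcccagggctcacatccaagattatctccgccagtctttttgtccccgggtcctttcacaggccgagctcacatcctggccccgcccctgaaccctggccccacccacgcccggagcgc
Acot2, chr12:83987711-83987860, plus strand: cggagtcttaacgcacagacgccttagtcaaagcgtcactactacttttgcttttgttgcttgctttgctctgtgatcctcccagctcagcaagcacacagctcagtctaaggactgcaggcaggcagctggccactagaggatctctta

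RefSeq promoter windows were found for 27 of the 35 members, 29 windows in all, running from 250 bases before to 50 bases after each start. None was found for Acaa2, Decr1, Vnn1, Cyp4a10, Cyp4a12a, Cyp4a12b, Cyp4a14 or Cyp4a31, so the counts below leave out most omega hydroxylases. A DR1 match with up to 2 mismatches lay in 3 of the 27 members, Fabp1, Cd36 and Slc25a20, while 4.4% of all genes with a window held one. With 1 mismatch allowed only Fabp1 held a match, 67 bases before its RefSeq start and on the opposite strand, as did 0.644% of all genes. Fabp1 was likewise the 1 member window of 29 with TATAAA between 40 and 20 bases before the start, against 1.99% of all windows. The 250 bases before the start were richer in G and C in the members, with a median of 58.4% against 52.4% over all windows and a median of 9 CpG sites against 6. A match is a description of letters only, and these windows leave out most of the sequence around each gene.

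Among the genes of uptake, binding and activation, Fabp1 was lower and the other 3 did not pass. Fabp1 encodes the liver fatty acid binding protein, which carries fatty acids through the cytosol, and lies on chromosome 6 from 71199827 to 71205023 (mm10, plus strand). Its CPM in KO livers 1 to 4 was 1566, 660, 618 and 356, whereas the controls had a lowest value of 3702, a median of 4281 and a highest of 5444. Every KO liver was thus below every control, with KO liver 1 nearest to them. The fitted level in KO livers was 18.4% of control (log2 fold change -2.44, SE 0.36, adjusted p = 0.00040).

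Per kilobase of exon, Fabp1 had the highest level of the 35 members, 7860 CPM per kb in controls and 1450 CPM per kb in KO livers. Cd36, a fatty acid transporter of the cell surface, gave -0.61 (SE 0.42, adjusted p = 0.296), with 119 CPM in KO liver 1 and 40.6 to 63.1 CPM in the other KO livers. Acsl1 and Acsl5 encode long-chain acyl-CoA synthetases, which activate fatty acids, and gave -0.16 (SE 0.14) and -0.14 (SE 0.16). Both changed sign with another scaling of the libraries, and Acsl5 passed without KO liver 1 (log2 fold change -0.34, adjusted p = 0.0357).

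Of the 3 genes of the carnitine shuttle, Cpt1a and Slc25a20 were lower. Cpt1a encodes carnitine palmitoyltransferase 1A, the rate-limiting enzyme of entry into mitochondria, and lies on chromosome 19 from 3322334 to 3385733. Its level was 253, 226, 206 and 265 CPM in KO livers 1 to 4, and the controls ranged from 337 to 420 CPM with a median of 383 CPM. The groups did not overlap, KO liver 1 lay among the other KO livers, and the fitted level was 62.6% of control (log2 fold change -0.68, SE 0.11, adjusted p = 0.00042).

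Slc25a20, the carnitine-acylcarnitine carrier of the inner membrane, gave -0.59 (SE 0.17, adjusted p = 0.0157). Its value in KO liver 1 was 135 CPM, within the control range of 116 to 160 CPM, against 72.3 to 83 CPM in the other 3, and the call was lost without KO liver 2, 3 or 4 (adjusted p = 0.069, 0.0732 and 0.0582). Cpt2, which returns acyl groups to CoA inside mitochondria, gave -0.07 (SE 0.09, adjusted p = 0.58).

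In mitochondrial beta-oxidation 5 of 9 members were lower and 0 were higher, with a median log2 fold change of -0.65. The members that were lower included the 4 acyl-CoA dehydrogenases of very long, long, medium and short chains, which take the first oxidation step. Acadl, for long chains, lies on chromosome 1 from 66830839 to 66863277 on the minus strand. It measured 118, 45.5, 54.5 and 62.7 CPM in KO livers 1 to 4, against 205 to 233 CPM with a median of 213 CPM in controls. All KO livers were below all controls, at 32.7% by the fit (log2 fold change -1.61, SE 0.23, adjusted p = 0.000211).

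The other 3 dehydrogenases fell by less. Acadvl, for very long chains, fell by 0.74 on the log2 scale (SE 0.12, adjusted p = 0.000552), Acadm, for medium chains, fell by 0.65 (SE 0.10, adjusted p = 0.000241) and Acads, for short chains, fell by 0.66 (SE 0.15, adjusted p = 0.00427). In each of the 3 the KO livers and controls did not overlap. Exons of Dvl2 on the opposite strand cover 42.9% of the Acadvl exons, so that its value is uncertain. Acad11, a dehydrogenase of longer chains outside this series, gave 0.01 (SE 0.11), with 338 to 404 CPM in KO livers and 309 to 418 CPM in controls. It was counted in this role by the gene list, and where its product acts in the cell was not examined.

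Acaa2, the mitochondrial 3-ketoacyl-CoA thiolase of the last step, was also lower. Its level was 611, 349, 351 and 340 CPM in KO livers 1 to 4, and the controls held 782 to 916 CPM with a median of 864 CPM. KO livers 2 to 4 lay close together and KO liver 1 lay between them and the controls. The fitted level was 48.2% of control (log2 fold change -1.05, SE 0.17, adjusted p = 0.000351).

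Of the members that act after the dehydrogenases, Hadha, Hadhb and Hadh did not pass. Hadha and Hadhb encode the subunits of the trifunctional protein, which hydrates, oxidises and cleaves long chains, and gave -0.11 (SE 0.11, adjusted p = 0.469) and -0.04 (SE 0.09, adjusted p = 0.748). Hadh, the dehydrogenase of medium and short 3-hydroxyacyl-CoA, gave -0.33 (SE 0.15, adjusted p = 0.101). Without KO liver 1, which had 438 CPM against 245 to 298 CPM in the others, Hadh passed at -0.52 (adjusted p = 0.00133). Of the Hadhb exon sequence, 16.7% of 75-base windows also occur in other genes, most of them in Gm13910.

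**Figure D2:**
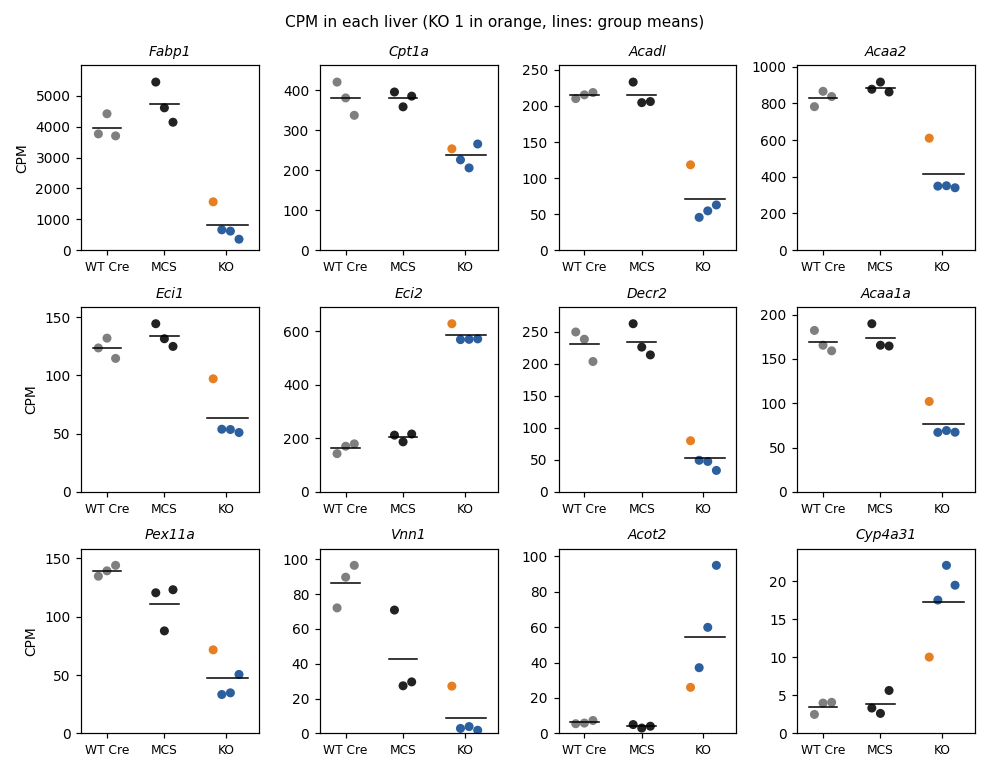
CPM in each liver for 12 members, with WT Cre controls in grey, MCS controls in black, KO liver 1 in orange and the other KO livers in blue; lines are group means and each axis starts at 0. Acaa2 reads 611 CPM in KO liver 1 against 340 to 351 CPM in the other 3, and Acot2 reads 26 to 94.8 CPM in KO livers against 3.04 to 7.3 CPM in controls.

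Double bonds need auxiliary enzymes, and their 4 genes moved in opposite directions, with Decr2 and Eci1 lower and Eci2 higher. Decr2 encodes the peroxisomal 2,4-dienoyl-CoA reductase and lies on chromosome 17 from 26081208 to 26090337 on the minus strand. It measured 79.8, 49.2, 47.4 and 33.4 CPM in KO livers 1 to 4, against 203 to 262 CPM with a median of 232 CPM in controls. No KO liver reached the control range, and the fitted level was 22.6% of control (log2 fold change -2.15, SE 0.20, adjusted p = 1.11e-05).

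Its mitochondrial counterpart Decr1 gave -0.36 (SE 0.15, adjusted p = 0.0813), and -0.59 (adjusted p = 0.000174) without KO liver 1. Eci1, the mitochondrial enoyl-CoA isomerase, lies on chromosome 17 from 24426641 to 24439348. Its KO values were 97.1, 53.8, 53.5 and 50.9 CPM, below the controls at 115 to 144 CPM with a median of 128 CPM. KO liver 1 was again nearest to the controls, and the fitted level was 49.6% of control (log2 fold change -1.01, SE 0.17, adjusted p = 0.000588).

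Eci2, an enoyl-CoA isomerase found in peroxisomes and mitochondria, lies on chromosome 13 from 34977748 to 35027096 on the minus strand. Its level was 629, 570, 571 and 572 CPM in KO livers 1 to 4, and 143 to 216 CPM with a median of 183 CPM in controls. The 4 KO livers agreed closely and all lay above every control, with KO liver 1 the highest. Eci2 was 3.17-fold higher (log2 fold change 1.66, SE 0.12, adjusted p = 1.21e-06). On the scale of CPM per kb it stood at 33.3 in controls, below Eci1 at 60.4, and at 106 in KO livers, above Eci1 at 30.

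Among the 4 peroxisomal members, Acaa1a and Pex11a were lower and Ehhadh was higher. Acaa1a, a peroxisomal 3-ketoacyl-CoA thiolase on chromosome 9 from 119339676 to 119350299, measured 102, 67.1, 69.2 and 67.3 CPM in KO livers 1 to 4. Controls had 159 to 190 CPM with a median of 166 CPM, so that the groups did not overlap. The fitted level was 44.6% of control (log2 fold change -1.16, SE 0.13, adjusted p = 3.35e-05).

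The neighbouring thiolase gene Acaa1b, on chromosome 9 from 119148023 to 119157093 on the minus strand, was the most abundant peroxisomal member. Its value was 1209 CPM in KO liver 1 and 362, 427 and 360 CPM in KO livers 2 to 4, against 862 to 1507 CPM with a median of 1171 CPM in controls. KO liver 1 thus lay inside the control range and the other 3 below it. Over all 4 livers Acaa1b did not pass (a fitted level of 50.1% of control, log2 SE 0.37, adjusted p = 0.0563), and without KO liver 1 it did (log2 fold change -1.62, adjusted p = 5.29e-05). Acaa1a and Acaa1b share 75-base windows over 9.5% and 24.4% of their exon sequence, and their summed counts gave -1.02 (SE 0.33, adjusted p = 0.0335). Opposite-strand exons also cover 11.4% of Acaa1b (Dlec1) and 6.57% of Acaa1a (Myd88).

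Pex11a encodes a membrane protein of peroxisome division and lies on chromosome 7 from 79735957 to 79743131 on the minus strand. It measured 71.7, 33.4, 34.8 and 50.6 CPM in KO livers 1 to 4, below the controls at 87.9 to 144 CPM with a median of 129 CPM. The fitted level was 38.0% of control (log2 fold change -1.39, SE 0.22, adjusted p = 0.000491). Ehhadh, the bifunctional enzyme of peroxisomal beta-oxidation, gave 0.43 (SE 0.14, adjusted p = 0.0271), with 402 to 568 CPM in KO livers and 295 to 420 CPM in controls. Its groups overlapped, and the call was lost without WT Cre control 2 (adjusted p = 0.0546), MCS control 1 or 2 (0.0589 and 0.0586) or KO liver 3 or 4 (0.0779 and 0.0923).

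The 2 acyl-CoA thioesterases, which release free fatty acids from CoA, are neighbours on chromosome 12. Acot2, the mitochondrial enzyme, from 83987861 to 83993873, had the largest rise of the members. Its CPM was 26, 37.1, 59.8 and 94.8 in KO livers 1 to 4, against 3.04 to 7.3 with a median of 5.25 in controls. All KO livers were above all controls, KO liver 1 by the smallest margin, and the fit gave 10.6-fold (log2 fold change 3.40, SE 0.36, adjusted p = 9.32e-05).

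Acot1, the cytosolic enzyme, from 84009490 to 84018371, did not pass at 0.54 (SE 0.24, adjusted p = 0.1). It measured 28.7, 32.8, 40.3 and 51.4 CPM in KO livers and 17.5 to 40.4 CPM with a median of 25.8 CPM in controls, so the groups overlapped. Without MCS control 3, the highest of the controls, Acot1 passed (log2 fold change 0.70, adjusted p = 0.0195). The pair shares windows over 15% of Acot1 and 21.2% of Acot2, and their summed counts rose by 1.56 on the log2 scale (SE 0.28, adjusted p = 0.00174).

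Bdh1, which interconverts the ketone bodies acetoacetate and 3-hydroxybutyrate, lies on chromosome 16 from 31422280 to 31458901. It had 263, 171, 156 and 121 CPM in KO livers 1 to 4, with controls at 186 to 303 CPM and a median of 270 CPM. KO liver 1 lay near the control median. Opposite-strand exons of Gm15743 cover 13.7% of its exons. The call (log2 fold change -0.55, SE 0.20, adjusted p = 0.0438) was lost under 15 of 19 alternatives, among them the omission of any WT Cre control (0.0732, 0.0796 and 0.0896), of MCS control 1 or 2 (0.0727 and 0.0597) or of KO liver 2, 3 or 4 (0.111, 0.135 and 0.131).

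Vnn1 and Pdk4 were the members taken as PPARA targets outside the oxidation steps. Vnn1 encodes a pantetheinase, which splits pantetheine from the breakdown of CoA, and lies on chromosome 10 from 23894688 to 23905343. It measured 27.2, 2.89, 3.96 and 1.84 CPM in KO livers 1 to 4, against 27.4 to 96.5 CPM with a median of 71.5 CPM in controls. KO liver 1 was just below the lowest control and the other 3 far below it. The fit gave 13.5% of control (log2 fold change -2.89, SE 0.87, adjusted p = 0.03), and -4.48 (adjusted p = 0.000634) without KO liver 1. Without WT Cre control 2 or KO liver 2, 3 or 4 the adjusted p was 0.0514, 0.0756, 0.08 and 0.0682.

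Pdk4 encodes a kinase that inhibits pyruvate dehydrogenase and so spares glucose, and lies on chromosome 6 from 5483351 to 5496309 on the minus strand. Its CPM was 33.6, 25.9, 36.8 and 35.3 in KO livers 1 to 4, 23.2, 17.1 and 26.7 in WT Cre controls and 5.37, 3.84 and 8.61 in MCS controls. The 2 kinds of control did not overlap, and KO livers overlapped with the WT Cre controls but not with the MCS controls. Against the 6 controls together Pdk4 did not pass (log2 fold change 1.21, SE 0.52, adjusted p = 0.0982), although it did when the controls were fitted as separate groups (log2 fold change 1.52, adjusted p = 0.000176) or without WT Cre control 3 (adjusted p = 0.0468).

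The 6 omega hydroxylases lie together on chromosome 4 between 115299046 and 115621602, and 3 of them were higher, none lower. Cyp4a12a, whose product hydroxylates arachidonic acid and which is male-biased in mouse liver, spans 115299046 to 115332815. Its CPM was 248, 887, 710 and 689 in KO livers 1 to 4, against 119 to 331 with a median of 177 in controls. KO liver 1 lay inside the control range and the other 3 above it, and the fit gave 3.06-fold (log2 fold change 1.61, SE 0.40, adjusted p = 0.0109).

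Cyp4a31, from 115563649 to 115579015, measured 10, 17.5, 22.1 and 19.5 CPM in KO livers 1 to 4 and 2.5 to 5.64 CPM with a median of 3.66 CPM in controls. Every KO liver was above every control, at 4.7-fold by the fit (log2 fold change 2.23, SE 0.24, adjusted p = 3.72e-05). Cyp4a10, a hydroxylase known to respond strongly to PPARA agonists, was 1.92-fold higher (log2 fold change 0.94, SE 0.28, adjusted p = 0.0227), with 465 CPM in KO liver 1 and 214 to 271 CPM in the others. Controls had 101 to 256 CPM, so the groups overlapped. Cyp4a10 was 1 of the members in which KO liver 1 changed most, and without this liver the call was lost (log2 fold change 0.65, adjusted p = 0.0781).

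Cyp4a14, which is likewise known as a strong PPARA target, had 166 CPM in KO liver 1 and 22.3, 38.5 and 28.4 CPM in KO livers 2 to 4, against 45.7 to 340 CPM in controls. It did not pass over all livers (log2 fold change -1.33, SE 0.72, adjusted p = 0.191) and was lower without KO liver 1 (log2 fold change -2.42, adjusted p = 0.0156). In KO livers 2 to 4 Cyp4a10 and Cyp4a14 therefore stood on opposite sides of their control medians, 134 CPM and 151 CPM. Cyp4a32 gave 0.20 (SE 0.34, adjusted p = 0.7), a value whose sign turned without KO liver 1 (log2 fold change -0.18).

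These hydroxylases are near copies of one another, and reads that fit several copies make their separate values uncertain. Cyp4a12a and Cyp4a12b share 75-base windows over 40.8% and 41.3% of their exon sequence, Cyp4a32 shares 28%, Cyp4a10 18.4% and Cyp4a31 12.8%, while Cyp4a14 shares none. Summed counts of Cyp4a10, Cyp4a31 and Cyp4a32 were higher by 0.92 on the log2 scale (SE 0.27, adjusted p = 0.0207), and those of Cyp4a12a and Cyp4a12b by 1.42 (SE 0.43, adjusted p = 0.0274).

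**Figure D3:**
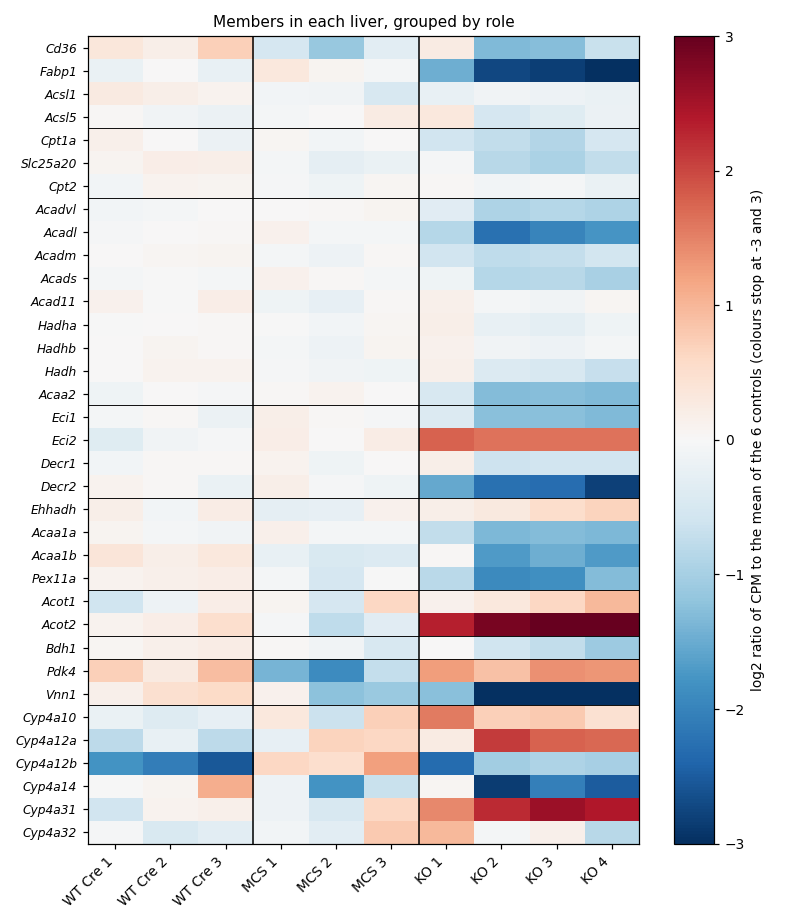
Log2 ratio of CPM in each of the 10 livers to the mean of the 6 controls for all 35 members, with blue for lower and red for higher values and horizontal lines between roles. KO liver 1, with a median ratio of 0.04, is paler than KO livers 2 to 4, whose medians are -0.62, -0.72 and -0.68.

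KO liver 1 was the least changed of the KO livers in 12 of the 14 lower members and in 4 of the 6 higher ones. The share of all genes in which it was the least changed is not given here. In it 15 of the 35 members were below their control mean, compared with 27, 26 and 26 in KO livers 2, 3 and 4. Leaving it out added Acsl5, Hadh, Decr1, Acaa1b and Cyp4a14 to the lower members and removed Cyp4a10 from the higher ones. Omitting the KO liver nearest to the controls favours such gains, so they describe the dependence on this liver only. The pull of this liver on the calls was not particular to the members. Over all genes 19.7% were higher and 16.6% lower, and 22% and 18.9% without KO liver 1. Without KO liver 2, 3 or 4 they were 16.7% to 17.2% higher and 12.5% to 14.1% lower. The hepatocyte marker sum of KO liver 1, 107000 CPM, was close to that of KO liver 2 at 105000 CPM. Its Kupffer cell and macrophage marker sum, 664 CPM, was the lowest of the KO livers, which otherwise had 1040 to 1440 CPM.

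Each kind of control answers a different question, since WT Cre controls share the Cre virus with KO livers and MCS controls share the floxed alleles. Both comparisons use the same 4 KO livers, so they are not independent of each other. Against WT Cre controls 15 members were lower and 5 higher (42.9% and 14.3% of the members), where 28.4% of all genes were called, 13.1% lower and 15.3% higher. Against MCS controls 12 were lower and 6 higher (34.3% and 17.1%), where 32% of all genes were called, 14.8% lower and 17.3% higher. The median log2 fold change of the members was -0.41 against WT Cre and -0.36 against MCS controls.

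The 11 members lower in both comparisons were Fabp1, Cpt1a, Acadvl, Acadl, Acadm, Acads, Acaa2, Eci1, Decr2, Acaa1a and Pex11a, and Eci2, Acot2, Cyp4a12a and Cyp4a31 were higher in both. The share of all genes called in both comparisons is not given here, so this list only names the members. No member was called in opposite directions. With near copies summed, 1 sum passed against MCS controls, Acot1 with Acot2 (1.49, adjusted p = 0.014). Cyp4a12a with Cyp4a12b gave 0.94 there (adjusted p = 0.0934) and Cyp4a10 with Cyp4a31 and Cyp4a32 gave 0.69 (adjusted p = 0.1175). Acaa1a with Acaa1b gave -0.72 (adjusted p = 0.164). Against WT Cre controls every sum passed, so Cyp4a12a, Cyp4a31 and Acaa1a are less secure against MCS controls. Without KO liver 1, 20 were lower and 7 higher against WT Cre controls, and 20 lower and 6 higher against MCS controls. In these fits 17.4% of all genes were lower and 19.5% higher against WT Cre controls, and 18.7% lower and 20.9% higher against MCS controls. With limma on log2(FPKM + 1), the authors' length-scaled values, the split against MCS controls was 10 lower and 9 higher, where 6.63% of all genes were lower and 20.3% higher.

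Slc25a20, Acaa1b, Bdh1 and Vnn1 were lower against WT Cre controls and did not pass against MCS controls, and Cyp4a10 was higher against WT Cre controls in the same way. For Vnn1 the log2 fold changes were -3.32 (SE 0.92, adjusted p = 0.0309) and -2.31 (SE 0.90, adjusted p = 0.0898), and for Acaa1b -1.28 (SE 0.40, adjusted p = 0.0382) and -0.64 (SE 0.40, adjusted p = 0.252). The difference between WT Cre and MCS controls, which is the test of these contrasts, did not pass for any of the 5 genes. The calls of Acaa1b, Bdh1, Vnn1, Cyp4a10 and Acads against WT Cre controls were each lost when any 1 of the WT Cre livers was left out, with adjusted p of 0.0567 to 0.101. Those of Acaa1b, Bdh1 and Vnn1 were lost without KO liver 2, 3 or 4 as well, that of Acads without KO liver 2 or 3, and that of Acaa1b also without any MCS liver (0.0503 to 0.0511). Against MCS controls, Cyp4a12a (log2 fold change 1.20, adjusted p = 0.0487) lost its call without any 1 liver other than KO liver 1, with adjusted p of 0.053 to 0.141, and Ehhadh without MCS control 1 or 2 (0.0791 and 0.0771).

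**Figure D4:**
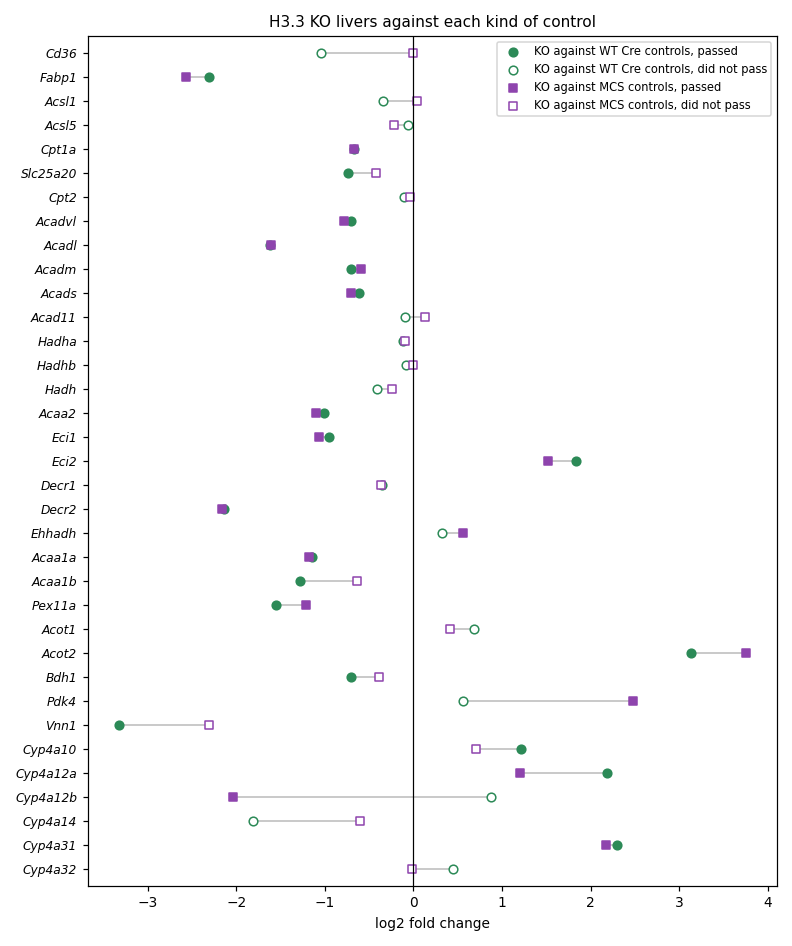
Log2 fold change of each member in H3.3 KO livers against WT Cre controls (green circles) and against MCS controls (purple squares), filled where the adjusted p was under 0.05. Pdk4 and Cyp4a12b have the longest lines between both values, from 0.56 to 2.48 and from 0.88 to -2.03.

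Between the 2 kinds of control, 33 of 35 members did not pass, Pdk4 was higher and Cyp4a12b was lower in WT Cre than in MCS controls, where 0.927% of all genes passed in either direction, 0.441% higher and 0.486% lower. Not passing does not show that the kinds agreed. In 11 members every WT Cre control was above every MCS control, and in 2 members every one was below. The share of all genes separated in this way is not given here. Pdk4 was higher in WT Cre controls by a log2 fold change of 1.92 (adjusted p = 0.00661). In KO livers Pdk4 was higher than in MCS controls (log2 fold change 2.48, SE 0.26, adjusted p = 7.78e-05), and against WT Cre controls it gave 0.56 (SE 0.24, adjusted p = 0.102).

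Cyp4a12b measured 10.3, 8.5 and 6.15 CPM in WT Cre controls, 55, 50.3 and 83.2 CPM in MCS controls and 7.17, 17.2, 18.8 and 17.8 CPM in KO livers 1 to 4. The WT Cre controls and the KO livers thus lay below every MCS control. Cyp4a12b fell by 2.91 on the log2 scale from MCS to WT Cre controls (adjusted p = 0.00623) and by 2.03 from MCS controls to KO livers (SE 0.32, adjusted p = 0.00123). Its reads are shared with Cyp4a12a. When both were summed, the difference between the control kinds was -1.19 (SE 0.41, adjusted p = 0.31), and by FPKM the change against MCS controls turned to 0.25, so the separate value of Cyp4a12b is not secure.

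Genes of the same pathways outside the members were read from 7 lists with 126 genes tested, of which 53 were lower and 17 higher against the 6 controls. Over all genes tested 16.6% were lower and 19.7% higher, the shares to set beside each of the 7 lists. Among PPARA and its partners 6 of 18 were lower and 2 higher, with a median log2 fold change of -0.33. Ppara itself had 68.4 ± 12.9 CPM in controls (SD, n = 6) and 52.3 ± 6.91 CPM in KO livers (SD, n = 4). The fitted log2 fold change of Ppara was -0.39 (SE 0.14, adjusted p = 0.0488), and this call was lost without WT Cre control 1 or 3 (adjusted p = 0.098 and 0.0865), MCS control 1 or 3 (0.0773 and 0.0847) or KO liver 2, 3 or 4 (0.0965, 0.162 and 0.121). Rxra, the partner receptor, fell by 0.78 on the log2 scale (adjusted p = 9.63e-05), the coactivator gene Ppargc1a fell by 0.997 (adjusted p = 0.000802) and Pparg fell by 2.21 (adjusted p = 0.0154, and 0.0576 without KO liver 4). Esrra, an orphan nuclear receptor of oxidative metabolism, was higher by 0.76 (adjusted p = 0.00133).

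In ketogenesis and ketone export 3 of 5 genes were lower and 1 higher, with a median of -0.64. The thiolase gene Acat1, whose product joins acetyl-CoA units, gave -0.91 (SE 0.31, adjusted p = 0.0372), with 128 to 443 CPM in KO livers and 383 to 494 CPM in controls, so the groups overlapped. The transporter gene Slc16a6 was higher by 1.08 (adjusted p = 0.0226). The call of Acat1 was lost without any 1 liver other than KO liver 1 (0.0508 to 0.106), and that of Slc16a6 without KO liver 4 (0.0561).

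Of 21 other genes of mitochondrial oxidation 13 were lower and 1 higher, with a median of -0.52. Echs1, the short-chain enoyl-CoA hydratase of the step between the dehydrogenases and Hadh, fell by 1.06 (adjusted p = 0.000794) and did not overlap between groups. Mmut and Pccb, which turn propionyl-CoA from odd chains toward succinyl-CoA, gave -1.43 (adjusted p = 1.14e-05) and -1.27 (adjusted p = 0.000142). Acacb, whose product makes the malonyl-CoA that inhibits CPT1, fell by 1.17 (adjusted p = 0.00687).

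Among 27 other peroxisomal genes 14 were lower and 2 higher, with a median of -0.50. Phyh, for the alpha-oxidation of phytanic acid, fell by 1.44 (adjusted p = 5.61e-05) and Pecr, a peroxisomal enoyl-CoA reductase, gave -1.43 (adjusted p = 0.00155). The higher pair was Acot3, a peroxisomal thioesterase (log2 fold change 2.36, adjusted p = 0.0415), and Eci3, a paralog of Eci2. Eci3 had 0 to 7 counts in each control library and 196 to 308 in each KO library, and its mean of 11 CPM in KO livers stood beside 585 CPM of Eci2. Eci2 shares windows over 3% of its exon sequence with Eci3 and 2 other genes, so part of the Eci3 reads may be uncertain. The call of Acot3 was lost without WT Cre control 2 or any 1 MCS control or KO liver (adjusted p = 0.0506 to 0.0862).

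Uptake and activation genes outside the members moved both ways, with 8 of 18 lower and 5 higher and a median of -0.43. Slc27a5, a very long-chain and bile acid CoA ligase, fell by 2.05 (adjusted p = 1.14e-05), and Fabp5 fell by 1.99 (adjusted p = 0.0279), a call lost without KO liver 2, 3 or 4 (adjusted p = 0.075, 0.0725 and 0.0598). Lpl, the lipoprotein lipase, rose by 2.28 (adjusted p = 0.000219) and the acyl-CoA synthetase gene Acsl4 by 1.71 (adjusted p = 0.00954), both genes that macrophages also express. The macrophage markers that moved with them are given above, and their part in these rises was not tested.

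Of other PPARA targets outside oxidation 6 of 29 were lower and 3 higher, with a median of -0.06, where 16.6% of all genes were lower and 19.7% higher. Fgf21, a fasting hormone of the liver, was at 1.51 to 10.3 CPM in controls and 0.153 to 1.56 CPM in KO livers (log2 fold change -3.49, SE 0.72, adjusted p = 0.0041). Plin4, a lipid droplet protein, fell by 2.31 (adjusted p = 0.00784) and the lipase gene Mgll fell by 0.92 (adjusted p = 0.000264). Ucp2, a mitochondrial carrier, rose by 1.99 (adjusted p = 3.5e-08), with 118 to 139 CPM in KO livers and 27.2 to 36.3 CPM in controls.

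The other Cyp4 genes split evenly, with 3 of 8 lower and 3 higher and a median of -0.28. Cyp4v3, a hydroxylase of medium-chain fatty acids, had 447 ± 92.4 CPM in controls (SD, n = 6) and 1830 ± 275 CPM in KO livers (SD, n = 4), a log2 fold change of 2.03 (adjusted p = 2.21e-06), and Cyp4f13 fell by 1.05 (adjusted p = 1.37e-05). Cyp4f16 and Cyp4f18 were higher by 1.86 (adjusted p = 7.46e-05) and 1.81 (adjusted p = 0.00146), the latter from a mean of only 0.662 CPM.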

How the data were processed

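Libraries were poly(A) selected and made with a directional kit. Per the labels and the study's methods, reads were aligned to mm10 with STAR. The methods name HOMER as the counter whereas the submitters' processing notes name HTSeq and Cufflinks, and the strand setting was not given in the sources used here. The authors deposited raw counts per gene and FPKM values. Members and gene lists were chosen with earlier results of these data known.

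Counts were scaled with TMM and tested with edgeR 4.0.16 (quasi-likelihood, robust, Benjamini-Hochberg) over 22449 genes with at least 10 counts in total. KO livers were compared with the 6 controls in a fit of 2 groups and with each kind of control in a fit of 3 groups. The DEG thresholds were those of the study, 0.05 for the adjusted p and 1 for the size of the log2 fold change. Library totals were 14998426 to 26096141 counts. CPM used the TMM-scaled totals and CPM per kb the GENCODE M21 exon union. The labels name 10 separate replicates, and p-values measure the spread between these samples. Values in every liver are given for member DEGs and the most abundant member of each role, and for Pdk4, Cyp4a12b and Cyp4a14, chosen after their values were seen. From each other list up to 4 genes with the largest changes past the test were named, with Ppara, Rxra, Ppargc1a and Fgf21 always; some genes the rule names are not reported here. Alternatives used DESeq2 1.42.0, limma 3.58.1 on log2(FPKM + 1) or log2(FPKM + 0.1), other scalings and filters, summed near copies and 1 liver left out. The fits were tested on simulated data.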

Additional observations from a re-analysis of the deposited data

Results flagged for a closer look

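A sample far from the rest of its group was looked for in the 35 members, in KO livers and in the 6 controls, with Dixon's test, and 12 of 70 groups were flagged. Chance flags about 1 in 20 independent groups. Most flags came from the same liver, KO liver 1, so these groups are not independent and the count is not a test against that rate. KO liver 1 was flagged above the other 3 in Acadvl (179 CPM), Acads (161 CPM), Acaa2 (611 CPM), Eci1 (97.1 CPM), Eci2 (629 CPM), Decr1 (233 CPM), Acaa1a (102 CPM), Acaa1b (1210 CPM), Vnn1 (27.2 CPM) and Cyp4a14 (166 CPM), and below them in Cyp4a12b (7.17 CPM). In Eci2 the flag rests on the narrow range of KO livers 2 to 4, 570 to 572 CPM, and the 4 values are close. The values without this liver stand beside the results. Among controls, MCS control 3 was far above the others in Cyp4a32 (36.9 CPM). Between WT Cre and MCS controls, Pdk4 differed by a log2 fold change of 1.92 and Cyp4a12b by -2.91, so that the change in KO livers depended on the kind of control for these 2 genes.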

How the results depend on the processing

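Of the 20 members called against the 6 controls, 15 kept their call and direction under every alternative run; Slc25a20, Ehhadh, Bdh1, Vnn1 and Cyp4a10 lost theirs in at least 1. Scaling by library size alone shifted the all-gene median from -0.003 to 0.17 on the log2 scale, with 5635 genes higher and 2172 lower against 4429 and 3726, and left 12 members lower and 7 higher. Under it, log2(FPKM + 1) and log2(FPKM + 0.1) respectively the sign turned in Acsl1 (0.0024, 0.059 and 0.060), Acsl5 (0.032, 0.048 and 0.048), Cpt2 (0.10, 0.13 and 0.13), Hadha (0.064, 0.015 and 0.015) and Hadhb (0.13, 0.15 and 0.16), none of which passed. With FPKM it turned in Cyp4a12b against the 6 controls (1.00 and 1.04) and against MCS controls (0.25 and 0.25), as it did with near copies summed (1.42 and 0.94), and in Ugt2b38, a male-biased gene (0.016 and 0.017). Leaving out 1 liver turned Acad11 (range -0.035 to 0.066), Hadhb (-0.11 to 0.0039) and Cyp4a32 (-0.18 to 0.43).

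Replicate numbers only name the samples. Same-numbered livers had correlations of -0.04 to 0.11, so the replicate block is not a pairing. It gave 12 members lower and 5 higher against the 6 controls, turned Acad11 (-0.0015), and left 11 higher genes of the other 7 lists in place of 17, where all genes had 3543 in place of 4429. Under log2(FPKM + 0.1) those lists had 34 lower genes in place of 53, and all genes tested 2014 in place of 3726. With 1 liver left out, 12 to 20 members were lower against MCS controls, 20 of them without KO liver 1. Between the control kinds 1 to 2 members were then higher, 2 of them without KO liver 1 and also 2 by DESeq2, and 0 were lower by log2(FPKM + 1), log2(FPKM + 0.1) or the replicate block. The cause of these shifts was not tested. Against the 6 controls, standard errors of 0.72 for Cyp4a14, 0.82 for Cyp4a12b and 0.87 for Vnn1 leave log2 changes of that size undetectable. For Cyp4a12b the 2 kinds of control pooled there differed. In the fit of 3 groups its SE was 0.32 against MCS controls, where it passed, and 0.33 against WT Cre controls.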

Other observations

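Sex-biased liver genes were read because Cyp4a12a is one of them. Of 14 female-biased genes 12 were higher and 0 lower in H3.3 KO livers of these male mice, with a median log2 fold change of 4.01, where 19.7% of all genes were higher. Their summed level was 1460 to 2260 CPM in KO livers and 51.5 to 223 CPM in controls. Cux2, a female-biased transcription factor of liver, had 18.2 to 30.4 CPM in KO livers and 0.204 to 1.15 CPM in controls (log2 fold change 5.40, SE 0.33, adjusted p = 1.12e-06 by edgeR), and Cyp2b13 ranged from 7.5 to 213 CPM in KO livers and from 0.0446 to 1.47 CPM in controls. Cyp3a41a and Cyp3a44 were also higher in every KO liver than in every control. Of 12 male-biased genes 4 were higher and 2 lower against the 6 controls, with a median of 0.18, where 19.7% of all genes were higher and 16.6% lower. Between WT Cre and MCS controls 1 of the 12 passed. The kinds of control lay far apart in Hsd3b5, with 0.953 to 7.89 CPM in WT Cre controls, 128 to 366 CPM in MCS controls and 0.195 to 13.7 CPM in KO livers. Elovl3, a fatty acid elongase, fell by 3.75 (SE 0.30, adjusted p = 6.54e-06) and Cyp2u1, a fatty acid hydroxylase, rose by 1.87 (adjusted p = 0.00105).

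Of 16 circadian clock genes 2 were higher and 1 lower, below the shares over all genes of 19.7% higher and 16.6% lower. Ciart rose by 2.24 (adjusted p = 0.0215, and 0.0504 without KO liver 2) and Cry2 by 0.72 (adjusted p = 0.0273, and 0.0529 to 0.0731 without WT Cre control 2 or 3, MCS control 2 or KO liver 4), and Nfil3, a repressor that counters clock output genes, fell by 2.02 (adjusted p = 0.000463).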
